A study of Mus musculus with 6 samples.

Results

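The atrophy ubiquitin ligases described here are 10 mouse genes, Fbxo32, Trim63, Trim32, Fbxo30, Fbxo21, Fbxo31, Mul1, Cblb, Nedd4 and Traf6. They were followed through every probe set whose platform annotation names 1 of these genes and no other, which gave 22 of the 45037 probe sets tested and 10 of the 17097 genes that could be followed by name. RNA came from the gastrocnemius, a mixed calf muscle, of male ICR mice that were 7 weeks old on arrival. The MA group (3 arrays) ate a diet with 0.27% maslinic acid (MA), a pentacyclic triterpene of olive peel, and the control group (3 arrays) ate the same AIN-93G diet without it. In all mice both legs were denervated 1 week after the diets began, by severing the sciatic nerve and taking out a piece of 5 mm, and the muscle was collected on day 14 after surgery with the diets continued. Denervation was thus shared by both groups, and the 6 arrays hold no muscle with an intact nerve, so what denervation itself did to these genes was not measured. The comparison asks whether the RNA of the ligases differed between denervated muscle of MA-fed and of control-fed mice.

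Ubiquitin ligases are the enzymes that choose which proteins are tagged with ubiquitin, which is handed to them by a ubiquitin-activating and then a ubiquitin-conjugating enzyme. Chains of ubiquitin send many targets to the proteasome, while other chains build signaling platforms. In skeletal muscle that loses its nerve, its load or its nutrients, a small group of ligases is induced, in large part through FoxO transcription factors when Akt signaling is low, and protein is then lost from the fibers. The F-box proteins among them (Fbxo32, Fbxo30, Fbxo21 and Fbxo31) bring substrates to a cullin complex called SCF. Trim63, Trim32, Mul1, Cblb and Traf6 carry a RING domain that holds the conjugating enzyme directly, and Nedd4 has a HECT domain that takes ubiquitin onto itself first.

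The authors' RMA processing gave 1 log2 value per probe set and array, so a difference of 1 is a doubling. The 3 arrays of a group are named by their replicate numbers. Neither the labels nor the methods state whether they came from separate mice, and p-values here cover no more than the spread from array to array (median SD within a group 0.0365). Array medians lay between 4.266 and 4.276. Acta1, the actin of skeletal muscle, had log2 values of 12.61, 12.61 and 12.63 on the MA arrays and 12.48, 12.51 and 12.49 on the control arrays, and Ckm, the muscle creatine kinase, had 12.00, 12.02 and 11.99 in the MA group, against 11.84, 11.82 and 11.83 in the control group. Of the probe sets for nonspecific binding, GC3 to GC24 had means of up to 3.93, which served as the background level. Another, GC25, stood apart at 7.3 and was left out after its value was seen, and 10 of the 22 probe sets of the ligases were above it in at least 1 group. Both muscle genes were above either level. The words rose and fell are used where limma's p-value, adjusted over all 45037 probe sets by the Benjamini-Hochberg method, was under 0.05. With 3 arrays a group, the smallest two-sided p of an exact permutation test is 0.1.

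Of the 22 probe sets of the ligases, 12 fell and 5 rose, and the other 5 did not pass the test. In at least 1 group 20 of the 22 were above the background level. Among all 45037 probe sets 42.9% passed, 21.4% lower and 21.6% higher. The members had a larger share of falls than this and a share of rises close to it. Of all probe sets 38.5% were at or under the background level in both groups, so these shares are not matched for level. Probe sets of one gene are not separate units, and Fbxo30 gave 4 of the falls and Fbxo32 gave 2. The ligases were also chosen with earlier results of these data known, so the larger share is a description only. The median difference, MA minus control, was -0.10 over the 22 probe sets and 0.00 over all. When arrays were centred on their hybridization controls in place of the deposited scaling, the median of all probe sets moved to -0.17 and the members' split became 19 lower and 0 higher. That centring takes the same amount off every probe set, so the distance of a member from the median of all probe sets stayed as it was. MA and control arrays were fully apart at 17 of these 22, in 12 of them with MA lower, against 53.9% and 26.4% of all probe sets. Under the thresholds of the methods, a fold over 1.2 with an unadjusted p under 0.05, the ligases had 5 probe sets lower and 0 higher, against 10.3% of all probe sets, 5.73% lower and 4.56% higher. These 5 belong to Fbxo32, Fbxo31 and Fbxo30. The count of 5 rises became 3 without MA 1, MA 2, MA 3, control 2 or control 3, each left out alone, and 4 without control 1. At the brightest probe set of each gene, 5 genes were lower (Fbxo32, Trim63, Fbxo30, Fbxo31 and Mul1), 2 were higher (Trim32 and Nedd4) and 3 did not pass the test, beside 23.0% lower and 24.7% higher of 17097 genes. Each ligase was above the background level at its brightest probe set, and of all genes with this in at least 1 group 57.0% passed the test.

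**Figure D1:**
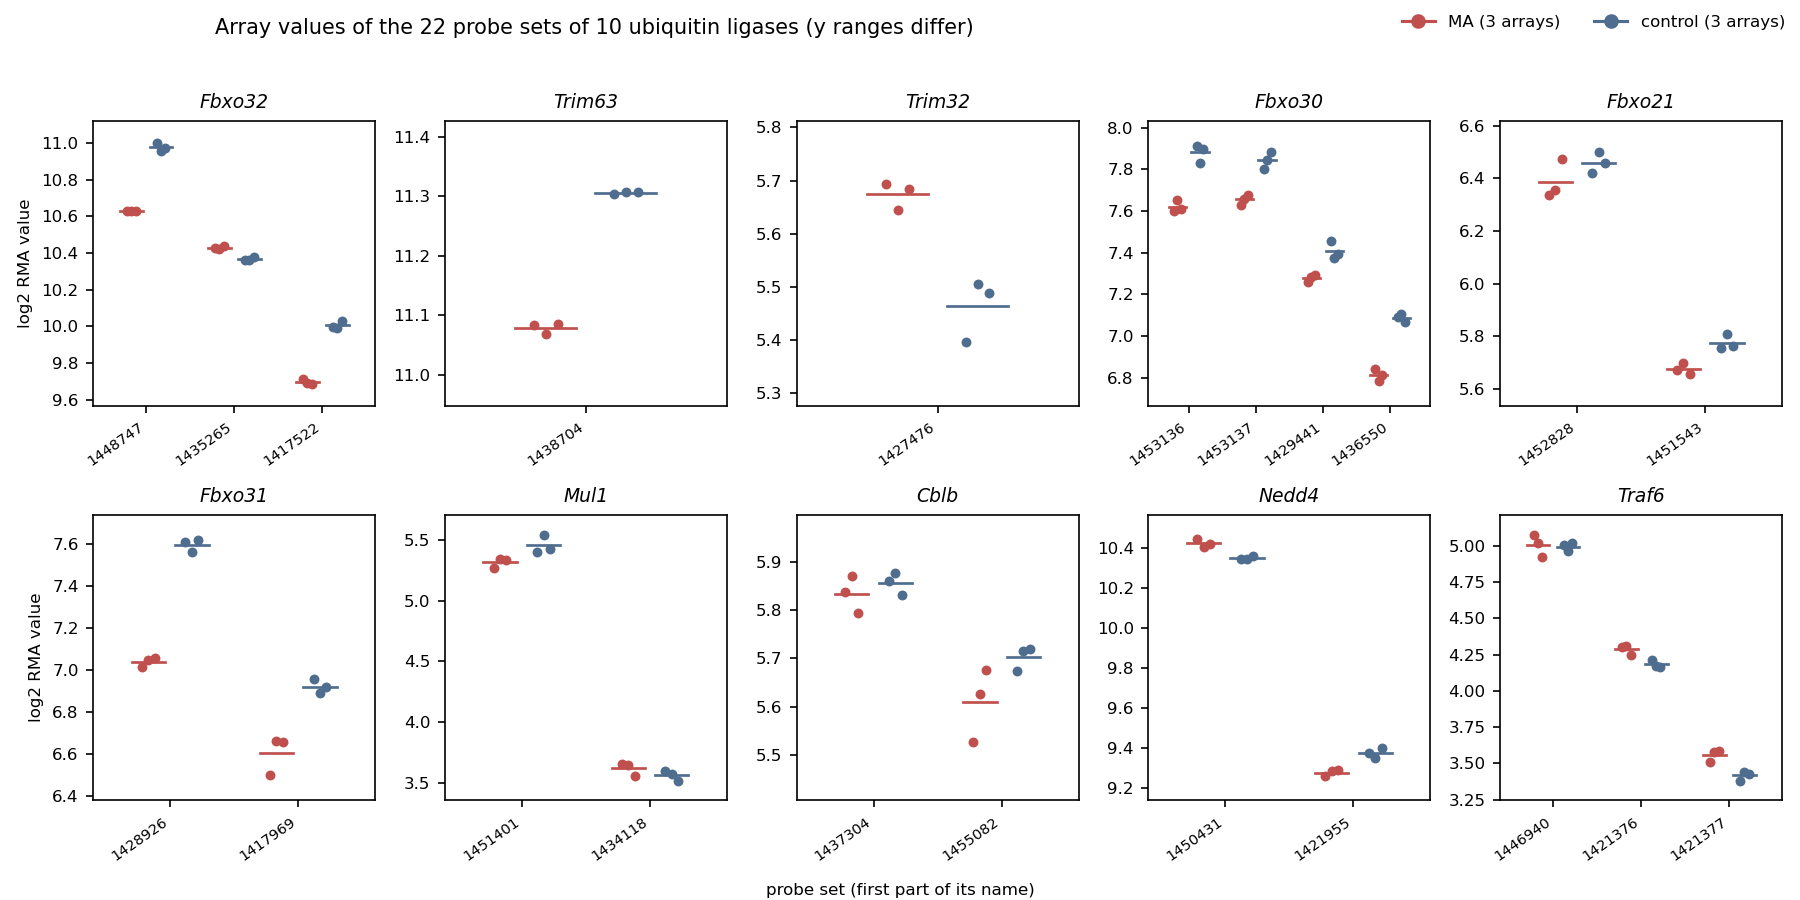
Array values of all 22 probe sets, 1 panel per gene, with the log2 RMA value on the y axis (its range differs between panels) and the probe sets on the x axis from the brightest to the dimmest. Points are arrays (MA left in red, control right in blue, 3 each) and bars are group means; Fbxo32 shows MA below control at 2 probe sets and above it at the one in the middle, a rise that turns into a fall of 0.11 on the log2 scale with arrays centred on hybridization controls.

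The stretch around the start site of a gene is where its transcription factors often bind, and it is shown for a ligase that fell, the ligase with the lowest difference and the ligase with the highest. RefSeq windows of the mouse assembly GRCm38.p6, from 250 bases before to 50 bases after the start, were found for 9 of the 10 ligases (10 windows, with a pair for Nedd4). Fbxo32 was not among them. Each window was searched on both strands for TGTTTAC (bound by FoxO factors), for CAGCTG (an E-box of the myogenic factors, which reads the same on both strands) and for GGGCGG (the GC box). Matches stand in capitals, and no match of one motif overlapped that of another. The Trim63 window is chr4:134314870-134315169 on the plus strand, the Fbxo31 window is chr8:121578757-121579056 on the minus strand and the Trim32 window is chr4:65604736-65605035 on the plus strand.
Trim63: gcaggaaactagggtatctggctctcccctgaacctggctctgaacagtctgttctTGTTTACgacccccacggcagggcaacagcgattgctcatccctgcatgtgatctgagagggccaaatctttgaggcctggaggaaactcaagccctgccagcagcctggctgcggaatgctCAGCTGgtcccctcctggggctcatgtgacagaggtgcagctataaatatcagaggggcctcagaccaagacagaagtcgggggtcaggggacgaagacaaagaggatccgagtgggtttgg
Fbxo31: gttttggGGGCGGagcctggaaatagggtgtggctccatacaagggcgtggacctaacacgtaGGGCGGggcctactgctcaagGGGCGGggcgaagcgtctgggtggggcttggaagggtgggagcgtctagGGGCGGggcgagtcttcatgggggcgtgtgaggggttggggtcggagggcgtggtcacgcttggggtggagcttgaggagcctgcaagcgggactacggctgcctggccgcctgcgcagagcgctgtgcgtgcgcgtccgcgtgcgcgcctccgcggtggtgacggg
Trim32: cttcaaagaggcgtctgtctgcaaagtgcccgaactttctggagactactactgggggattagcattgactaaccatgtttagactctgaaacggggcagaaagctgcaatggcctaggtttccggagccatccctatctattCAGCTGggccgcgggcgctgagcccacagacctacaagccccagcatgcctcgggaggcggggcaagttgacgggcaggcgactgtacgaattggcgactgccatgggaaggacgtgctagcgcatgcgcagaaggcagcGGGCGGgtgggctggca

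TGTTTAC was in 3.65% of 32851 RefSeq windows of this length and, among the ligases, in that of Trim63 alone, at -194 to -188 from the start. CAGCTG, in 16.3% of all windows, was found at -72 to -67 in Trim63, at -107 to -102 in Trim32 and in the second window of Nedd4. GGGCGG or its reverse, in 35.7% of all windows, occurred 4 times in Fbxo31, 5 times in Fbxo30, 3 times each in Fbxo21 and Cblb, 2 times each in Traf6 and the first window of Nedd4, once in Trim32, and not in Trim63 or Mul1. Overlapping matches were counted, and those of Fbxo30 at -46 to -41, -42 to -37 and -38 to -33 share bases in a single run.  The 4 windows of ligases that fell at the brightest probe set (Trim63, Fbxo31, Fbxo30 and Mul1) had no searched motif common to all, and a match of letters shows no binding.

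Fbxo32, also known as atrogin-1, is the F-box protein of the classic atrophy program, and MyoD and the translation factor eIF3f are among its targets. Its brightest probe set, 1448747_PM_at, had a log2 value of 10.63 on each of the 3 MA arrays, against 11.00, 10.96 and 10.97 on the control arrays. Every MA array lay below every control array. The difference was -0.35 (SE 0.022, adjusted p = 6.09e-06), or 1.27-fold lower with MA. A dimmer one, 1417522_PM_at, read 9.71, 9.69 and 9.69 in the MA group, against 10.00, 9.99 and 10.03 in the control group. It fell by 0.31 (SE 0.022, adjusted p = 1.30e-05), again without overlap. The annotation gives both of these probe sets the same source transcript, so they are not separate evidence on the gene.

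The other Fbxo32 probe set, 1435265_PM_at, has another source transcript. It read 10.43, 10.42 and 10.44 on the MA arrays and 10.36, 10.36 and 10.38 on the control arrays, so here the MA arrays were the higher ones. The difference of 0.06 (SE 0.020, adjusted p = 0.0386) was 1.04-fold, and its sign turned to -0.11 with arrays centred on hybridization controls (adjusted p = 0.0029). Leaving out any single array ended this call, with adjusted p from 0.0664 without control 1 to 0.105 without MA 3 (0.0702 without MA 1, 0.0852 without MA 2, 0.103 without control 2, 0.0672 without control 3). It also missed the threshold after quantile normalization again (adjusted p = 0.0679) and after centring on array medians (adjusted p = 0.0506). The call stayed with the one-way test of the methods (adjusted p = 0.0055) and with a trend in eBayes (adjusted p = 2.67e-05). Robust moderation (adjusted p = 0.041) and array weights (adjusted p = 0.0276) kept it too. The mean of the 3 probe sets of Fbxo32 differed by -0.20 (adjusted p = 4.21e-05).

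Trim63 (MuRF1), the RING ligase of the sarcomere that marks thick filament proteins such as myosin heavy chain, was read by 1 probe set, 1438704_PM_at. Its log2 values were 11.08, 11.07 and 11.09 on the MA arrays and 11.30, 11.31 and 11.31 on the control arrays. The groups were apart by many times the spread within them. Trim63 fell by 0.23 on the log2 scale (SE 0.020, adjusted p = 4.59e-05), a fold of 1.17, which is under the 1.2 of the methods.

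Trim32 is a relative of Trim63 with a RING domain, known for the turnover of desmin filaments and of dysbindin, and for its mutation in a limb girdle muscular dystrophy. Trim32 had values of 5.69, 5.65 and 5.68 in the MA group, against 5.40, 5.51 and 5.49 in the control group at its only probe set, 1427476_PM_a_at. All MA arrays were above all control arrays, the opposite of Trim63. Trim32 rose by 0.21 (SE 0.033, adjusted p = 0.00111), 1.16-fold, a rise that came to 0.04 and did not pass the test (adjusted p = 0.41) with arrays centred on hybridization controls.

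Fbxo31, an F-box protein known for the degradation of cyclin D1, had the lowest difference of the 10 genes. Its brightest probe set, 1428926_PM_at, read 7.01, 7.05 and 7.05 with MA against 7.61, 7.56 and 7.62 in the control group. No array of one group came near the other group. The fall was -0.56 (SE 0.025, adjusted p = 8.70e-07), 1.47-fold. At 1417969_PM_at the MA arrays read 6.50, 6.66 and 6.66 and the control arrays 6.95, 6.89 and 6.92. MA 1 was the lowest array there, and the groups were still apart, with a difference of -0.31 (SE 0.045, adjusted p = 6.62e-04).

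Fbxo30, or MUSA1, is an F-box protein that denervated mouse muscle induces strongly when BMP signaling is blocked. It fell at all 4 of its probe sets. The brightest, 1453136_PM_at, had 7.60, 7.65 and 7.61 in the MA group, against 7.91, 7.83 and 7.90 in the control group, a difference of -0.26 (SE 0.029, adjusted p = 1.80e-04). Probe set 1436550_PM_at had 6.84, 6.79 and 6.81 on the MA arrays and 7.09, 7.11 and 7.06 on the control arrays, and fell by 0.27 (SE 0.024, adjusted p = 4.53e-05), 1.21-fold. The groups did not overlap at either. Probe set 1453137_PM_at differed by -0.19 (adjusted p = 8.73e-04) and 1429441_PM_at by -0.13 (adjusted p = 0.00469). 1436550_PM_at has a source transcript of its own, while the other 3 probe sets of Fbxo30 share theirs.

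Fbxo21, called SMART in work on denervated mouse muscle, is an F-box protein among the FoxO targets. Its brightest probe set, 1452828_PM_at, read 6.34, 6.35 and 6.47 with MA and 6.42, 6.50 and 6.46 in the control group. MA 3 lay among the control arrays and the other MA arrays below all of them. The difference of -0.07 did not pass the test (95% interval -0.16 to 0.02, adjusted p = 0.179), and it was -0.05 without MA 1 (adjusted p = 0.425), -0.11 without MA 3 (adjusted p = 0.0262) and -0.05 without control 2 (adjusted p = 0.402). With arrays centred on hybridization controls it was called lower at -0.25 (adjusted p = 1.74e-04). The dimmer 1451543_PM_at, with 5.67, 5.70 and 5.66 in the MA group against 5.76, 5.81 and 5.76 in the control group, fell by 0.10 (SE 0.025, adjusted p = 0.0117) without overlap.

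Mul1, a RING ligase in the outer membrane of mitochondria that takes mitofusin 2 as a target, fell at its brightest probe set by 0.14 (SE 0.041, adjusted p = 0.0226). The values at 1451401_PM_a_at were 5.27, 5.34 and 5.33 in the MA group, against 5.40, 5.54 and 5.43 in the control group, so the highest MA array was close below the lowest control array. The call ended without MA 1 (-0.12, adjusted p = 0.0761), without control 2 (-0.10, adjusted p = 0.0517) and with the one-way test of the methods (adjusted p = 0.108). The second Mul1 probe set, 1434118_PM_at, was under the background level in both groups, at 3.55 to 3.66 with MA and 3.52 to 3.60 in the control group.

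Cblb, the RING ligase that removes the insulin receptor substrate Irs1 in unloaded muscle, passed the test at neither of its 2 probe sets, and the groups overlapped at both. The difference was -0.02 at 1437304_PM_at (95% interval -0.08 to 0.04, adjusted p = 0.55), where it turned to 0.00 after quantile normalization again. At 1455082_PM_at the MA arrays read 5.53, 5.63 and 5.68 and the control arrays 5.67, 5.71 and 5.72. MA 1 was the farthest from the others, and the difference was -0.09 (95% interval -0.18 to -0.00, adjusted p = 0.084). Without MA 1 it was -0.05 (adjusted p = 0.203) and without MA 3 it was -0.13 (adjusted p = 0.0327). With arrays centred on hybridization controls both Cblb probe sets were called lower, at -0.20 (adjusted p = 2.36e-04) and -0.27 (adjusted p = 5.71e-05).

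Nedd4, the founding HECT ligase of its family and known in denervated muscle for its action on Notch1, gave opposite results at its 2 probe sets. At 1450431_PM_a_at the MA arrays had 10.45, 10.41 and 10.42 and the control arrays 10.35, 10.35 and 10.36. This rise of 0.07 (SE 0.022, adjusted p = 0.0252) turned to -0.10 with arrays centred on hybridization controls (adjusted p = 0.00847). It no longer passed the test without MA 1 (adjusted p = 0.0704), MA 3 (adjusted p = 0.0606), control 2 (adjusted p = 0.0732) or control 3 (adjusted p = 0.0507). At 1421955_PM_a_at the order was the reverse, with 9.26, 9.28 and 9.29 in the MA group, against 9.37, 9.35 and 9.40 in the control group, a fall of -0.10 (SE 0.023, adjusted p = 0.00969). Neither probe set had overlapping groups, and the annotation gives both the same source transcript. The mean of both Nedd4 probe sets differed by -0.01 (adjusted p = 0.605).

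Traf6 is an adaptor with a RING domain that builds signaling chains of ubiquitin below receptors of inflammation, upstream of NF-kB. At its brightest probe set, 1446940_PM_at, the values of 5.08, 5.02 and 4.92 on the MA arrays and 5.00, 4.96 and 5.02 on the control arrays overlapped, and the difference was 0.01 (95% interval -0.08 to 0.10, adjusted p = 0.862). Traf6 was higher by 0.10 (SE 0.026, adjusted p = 0.0139) at 1421376_PM_at, with 4.30, 4.31 and 4.25 in the MA group, against 4.21, 4.17 and 4.16 in the control group. This call ended without MA 2 (0.09, adjusted p = 0.0572). At 1421377_PM_at, where both groups were under the background level (3.51 to 3.59 with MA, 3.38 to 3.44 in the control group), the difference was 0.14 (adjusted p = 0.00466). The annotation gives 1421376_PM_at and 1421377_PM_at the same source transcript, so they are not separate evidence. All 3 Traf6 differences turned below 0 with arrays centred on hybridization controls, at -0.17, -0.07 and -0.03, starting from the brightest.

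**Figure D2:**
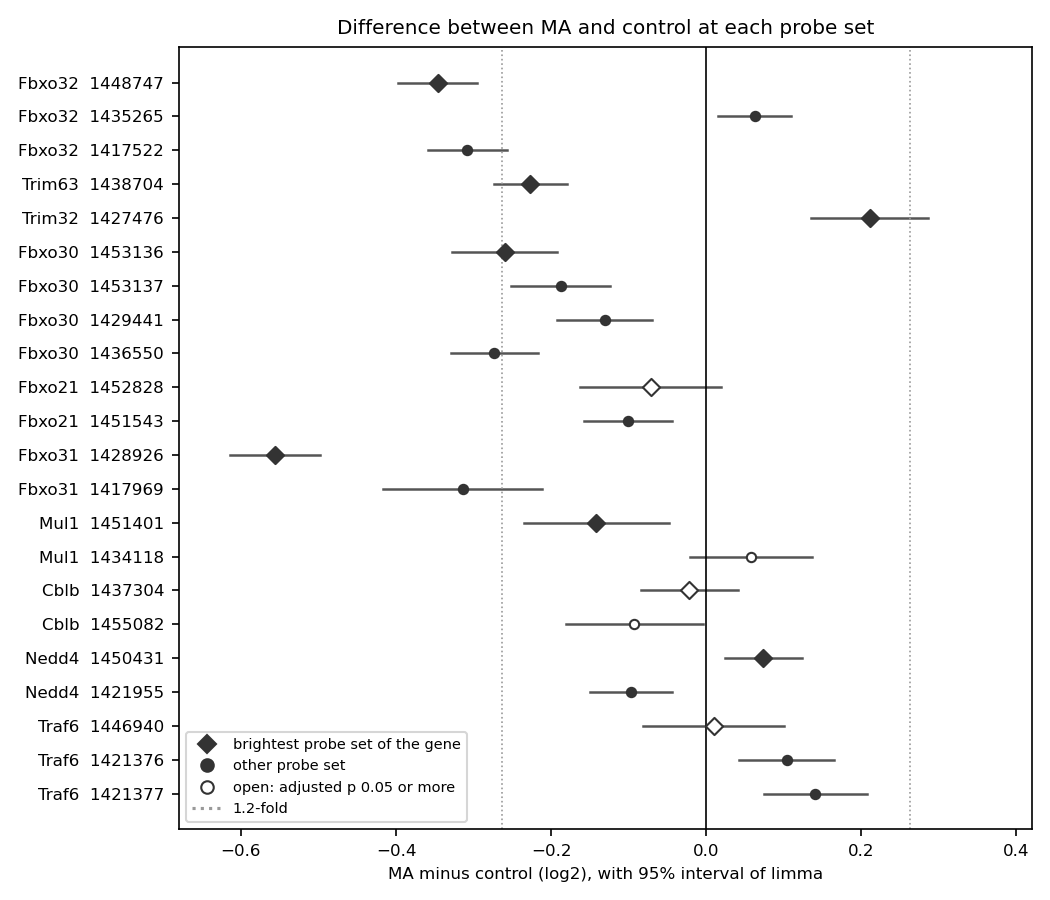
Difference between MA and control on the log2 scale (x axis) for each of the 22 probe sets (rows), with the 95% interval of limma, diamonds for the brightest probe set of a gene and open symbols for an adjusted p of 0.05 or more. Fbxo31 lies farthest to the left at -0.56 and Trim32 farthest to the right at 0.21; with arrays centred on hybridization controls Trim32 stayed above 0 at 0.04 and the other probe sets right of 0 moved below it.

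The probe sets of one gene were compared directly, by taking, on each array, a probe set's value minus that of the gene's brightest one and testing that quantity between MA and control over all 11801 such pairs of 7180 genes. A constant shift of an array cancels in it. Of the 12 pairs of the ligases 5 differed, against 45.7% of all pairs, so differing probe sets were about as common among the ligases as elsewhere on the array. The median size of the difference was 0.112 over the 12 pairs and 0.102 over all.

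The widest gap was in Fbxo32, where 1435265_PM_at moved 0.41 apart from 1448747_PM_at (SE 0.031, adjusted p = 1.36e-05), while 1417522_PM_at did not differ detectably from it (0.04, 95% interval -0.03 to 0.11). In Fbxo31 the dimmer probe set fell less by 0.24 (SE 0.041, adjusted p = 0.00139), and in Fbxo30 1429441_PM_at fell less by 0.13 (SE 0.033, adjusted p = 0.011), each with the same sign as its gene's brightest. The other Fbxo30 pairs did not pass the test, with 0.07 (95% interval -0.02 to 0.16) for 1453137_PM_at and -0.01 (95% interval -0.11 to 0.08) for 1436550_PM_at. The Nedd4 probe sets differed by -0.17 (SE 0.033, adjusted p = 0.00271). For Mul1 the gap was 0.20 (adjusted p = 0.016), which rests in part on a probe set under the background and was not called without MA 1 (0.16, adjusted p = 0.0554) or without control 2 (0.16, adjusted p = 0.0596).

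Pairs of Fbxo21 (-0.03, 95% interval -0.13 to 0.07) and Cblb (-0.07, 95% interval -0.18 to 0.04) did not pass the test. Nor did those of Traf6, at 0.09 (95% interval 0.01 to 0.18, adjusted p = 0.0725) and 0.13 (95% interval 0.00 to 0.26, adjusted p = 0.0875). The Cblb pair differed without MA 3 (-0.12, adjusted p = 0.0496) and was at -0.03 without MA 1 (adjusted p = 0.678). Both Traf6 pairs differed without MA 1 (0.12, adjusted p = 0.036, and 0.19, adjusted p = 0.0163), while without MA 3 that of 1421377_PM_at was at 0.08 (adjusted p = 0.281). Both probe sets had passed the test against control in 7 of the 12 pairs, and in 2 of these 7, those of Fbxo32 and Nedd4, the directions were opposite. Over all genes this held for 657 of 3432 such pairs, or 19.1%.

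**Figure D3:**
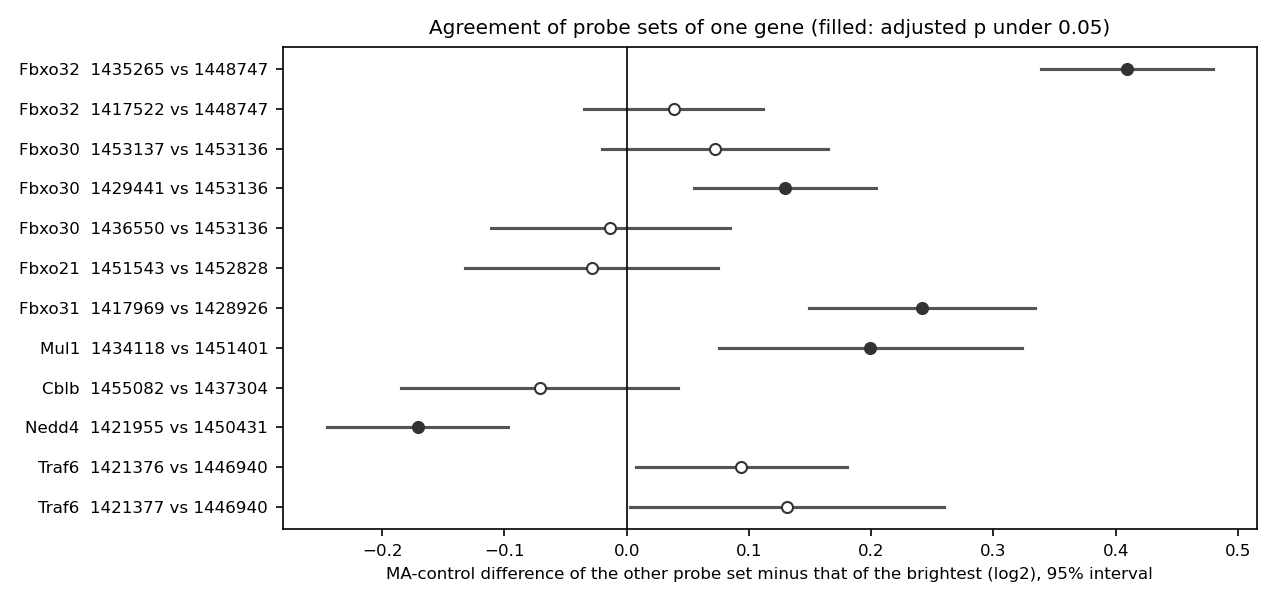
For each gene with several probe sets, the MA-control difference of a probe set minus that of the gene's brightest one (x axis, log2, with the 95% interval; rows are pairs, filled where the adjusted p is under 0.05). A value of 0 means the same MA effect at both; Fbxo32 has 1 pair at 0.41 and another at 0.04.

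Around the ligases, lists of genes of the same pathway were followed at the brightest probe set of each gene, beside the 47.8% of all 17097 genes, and the 57.0% of those above the background, that passed the test. Other ubiquitin ligases of muscle, 16 measured of 22 listed, had 6 genes higher and 8 lower with a median difference of -0.07. The members with the widest differences in this list all rose: Wwp1, a HECT ligase, by 0.56 (adjusted p = 2.63e-07), Asb2, which brings desmin and filamins to a cullin, by 0.53 (adjusted p = 4.73e-07) and Fbxw7, an F-box protein for cyclin E and Notch, by 0.45. The 4 probe sets of Wwp1 ranged from -0.03 to 0.56.

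The SCF and cullin core, on which the F-box ligases depend, had 12 of 13 genes measured, with 4 that rose, 2 that fell and 6 that missed the threshold. Cand1, the exchange factor for F-box proteins, fell by 0.34 (4 probe sets from -0.34 to -0.02), Cops5, which strips Nedd8 off cullins, rose by 0.22, and Cul5 rose by 0.18. The list of ubiquitin genes and of activating and conjugating enzymes had 13 of 17 genes measured. All 13 were Ube2 genes, the family of the conjugating enzymes, so no ubiquitin gene and no activating enzyme was read. Of the 13, 8 rose and 2 fell, with a median of 0.13. Ube2j1 of the endoplasmic reticulum was higher by 0.37 (its second probe set was at -0.02), Ube2e1 by 0.29 and Ube2d1 by 0.25. Deubiquitinases and partners of the proteasome (10 of 11 measured) had 3 higher and 5 lower. Cyld, which removes the signaling chains that Traf6 builds, rose by 0.69 (adjusted p = 8.16e-08), with 8.07, 8.07 and 8.09 on the MA arrays and 7.38, 7.39 and 7.39 on the control arrays. Usp2 rose by 0.26 and Tnfaip3, the NF-kB inhibitor A20, fell by 0.22, while its second probe set was at 0.07.

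Of the transcription regulators of atrophy, 16 of 19 were measured, 9 fell and 2 rose, with a median of -0.12. Cebpb, a factor of inflammation that acts on the Fbxo32 promoter, fell by 0.81 (adjusted p = 3.19e-08; 3 probe sets from -0.99 to -0.20), and Rela, the p65 subunit of NF-kB, by 0.34. Foxo3 had 7.13, 7.12 and 7.04 with MA and 7.20, 7.22 and 7.23 in the control group, a fall of 0.12 (adjusted p = 0.0105). Only 1 probe set names Foxo1 alone. It was under the background level in both groups and differed by -0.03 (adjusted p = 0.568), so it says little about Foxo1 RNA. Myog, the myogenic factor that activates Fbxo32 and Trim63 after denervation, fell by 0.16 (adjusted p = 6.48e-04). Hdac9, a repressor that responds to innervation, differed by 0.31 (adjusted p = 8.09e-04), with a mean of 3.94 with MA, at the background level, and 3.63 in the control group, below it, and its second probe set was at -0.02.

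Kinase inputs to FoxO, 13 of 17 measured, had 5 genes higher and 4 lower. Ddit4, the inhibitor of mTOR also known as REDD1, read 6.75, 6.76 and 6.79 in the MA group, against 7.87, 7.87 and 7.86 in the control group, a fall of -1.10 (adjusted p = 7.62e-09). Pik3r1, the regulatory subunit of PI3 kinase, fell by 0.28, with its 4 probe sets ranging from -0.28 to 0.06. Irs1, the adaptor of insulin and IGF receptors and the target of Cblb, rose by 0.41 (adjusted p = 1.80e-05). Substrates and partners of the ligases, 18 of 20 measured, were split into 6 higher and 8 lower. Notch1, a target of Nedd4, fell by 0.94 (adjusted p = 2.89e-07; its second probe set was at -0.24) and Myod1, a target of Fbxo32, by 0.46 (adjusted p = 4.18e-06). RNA levels do not show what a ligase did to these proteins.

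Genes known to be induced by denervation (13 of 16 measured) had 3 higher and 6 lower, with a median of -0.05. Chrng, the fetal subunit of the acetylcholine receptor, fell by 0.68 (adjusted p = 1.90e-07), while Ncam1, an adhesion molecule of denervated fibers, rose by 0.62 and embryonic myosin Myh3 by 0.48. The 6 probe sets of Ncam1 ranged from -0.10 to 0.62 and the 3 of Chrng from -0.73 to -0.05. So the list held members in both directions, like the ligases themselves. The 8 lists had medians between -0.12 and 0.13, against 0.01 over all 17097 genes. Each list's counts of genes higher and lower stayed within 1.5 times when the mean of a gene's probe sets took the place of the brightest.

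**Figure D4:**
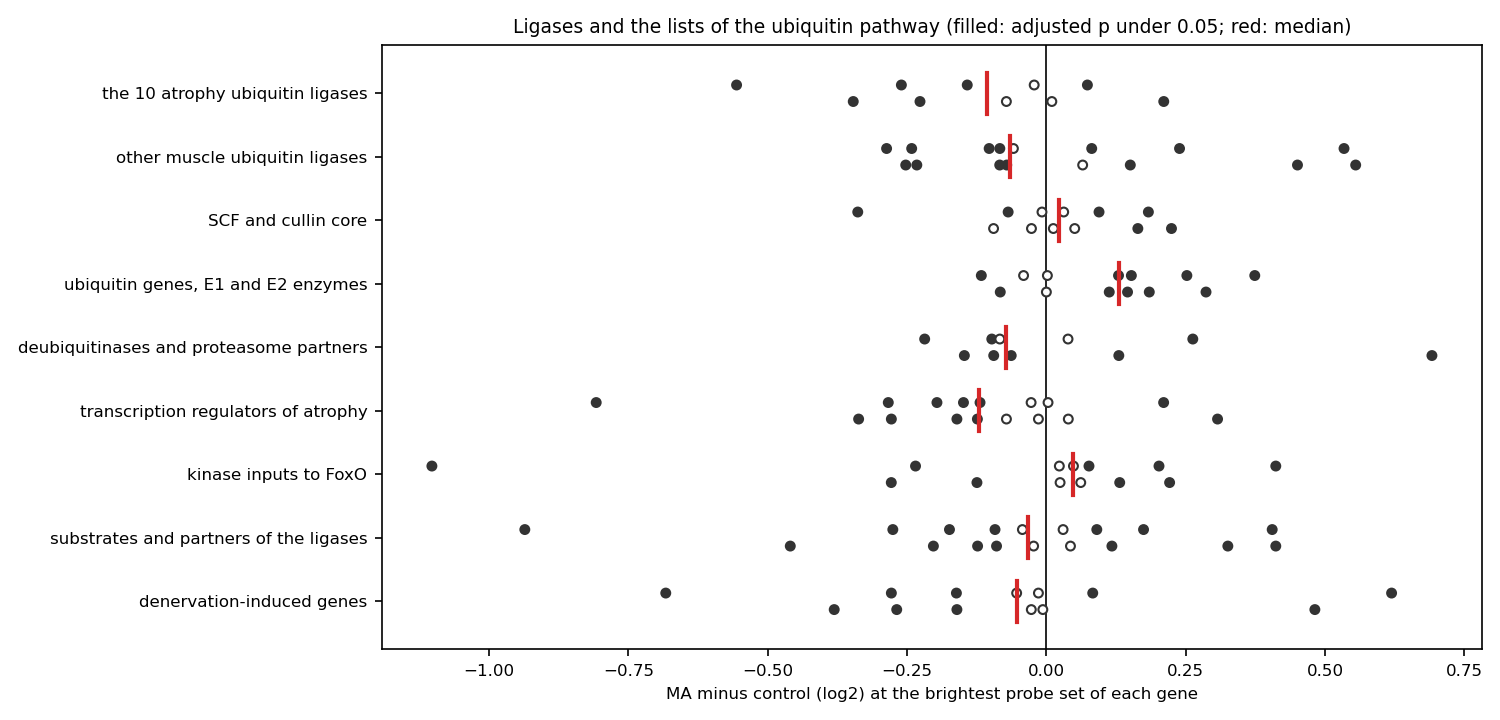
MA-control difference (x axis, log2) at the brightest probe set of each gene, for the 10 ligases in the top row and the 8 pathway lists below (points are genes, filled where the adjusted p is under 0.05, and red bars are medians). The ligases span -0.56 to 0.21 with a median of -0.11. Their lowest point lies below every gene of the other muscle ligases, the SCF and cullin core, the conjugating enzymes and the deubiquitinases. In the remaining rows some genes lie lower, and every list has a gene above the highest ligase. Centring on hybridization controls shifts every point to the left by the same amount.

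Markers of other cells in the muscle moved between the groups as well. Of 10 macrophage markers, all measured, 8 fell and 0 rose, and their mean log2 level was 6.18 to 6.23 on the MA arrays and 6.92 to 6.93 on the control arrays, with Itgam under the background level. The 6 slow fiber markers had a mean level of 9.54 to 9.57 in the MA group, against 8.34 to 8.35 in the control group. Of these 6, 5 rose and 1 fell, and their differences ran from -0.06 to 2.98. The 8 fast fiber markers had 12.35 in the MA group, against 12.29 in the control group, with 3 higher and 0 lower. The 5 general fiber markers had 12.17 in the MA group, against 12.11 in the control group, with 3 higher and 1 lower. T cell markers (5 of 6 measured) had 4.16 to 4.19 with MA and 4.24 to 4.26 in the control group. Among them 1 rose and 2 fell, with Cd2 and Cd3g under the background level. The 5 tendon cell markers all rose, with a mean level of 6.65 to 6.68 on the MA arrays and 5.73 to 5.74 on the control arrays (Mkx under the background level), and 3 of 6 fibroblast markers rose and 1 fell, at 8.34 to 8.37 with MA and 8.08 to 8.10 in the control group. Of 6 endothelial markers 5 fell and 0 rose, at 4.61 to 4.67 with MA and 4.76 to 4.86 in the control group (Tie1 under the background level). Mean levels were also apart for satellite cell markers (4 of 4 measured), at 5.30 to 5.32 with MA and 5.11 to 5.15 in the control group. Among these 2 rose and 1 fell. Smooth muscle markers (3 of 4) had 5.30 to 5.37 with MA and 5.46 to 5.49 in the control group. Here 0 rose and 2 fell, with Cnn1 under the background level. Schwann cell markers (3 of 5) had 4.71 to 4.74 with MA and 4.85 to 4.91 in the control group. In that list 1 gene rose and 2 fell, with S100b under the background level. Adipocyte markers (2 of 4) had 8.98 to 8.99 with MA and 8.76 to 8.78 in the control group. Of the 2, 1 rose by 0.64 and 1 fell by 0.22, so their mean shows no common shift. The part of all these in the differences of the ligases was not tested. In a whole muscle, fewer cells of a type and less RNA per cell cannot be told apart.

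The genes whose 6 values were most like those of the brightest Fbxo32 probe set, among 2064 genes above the background and past a fold of 1.2, were Tmem176a, Hook2, Rhob, Aplp2 and Dubr, with Pearson r from 0.9991 to 0.9999 over the 6 arrays. All of them fell, Rhob by 0.90, Tmem176a by 0.78, Dubr by 0.45, Aplp2 by 0.31 and Hook2 by 0.28. As the 6 arrays form 2 separate groups, such an r describes the group difference and little else.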

How the data were processed

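RNA of denervated gastrocnemius muscle was measured on 6 arrays, 3 each of the MA group and the control group, mapped from the sample titles. The authors prepared labelled cRNA from poly(A) RNA, hybridized it to mouse array strips of the GeneAtlas system and processed the scans with RMA in Affymetrix Expression Console, whose version is not given in the sources used here; their group comparison used Transcriptome Analysis Console version 4. A human array is named in the deposited design text, while the probe sets have names of the mouse array given in the methods. The deposited values are log2 values, as RMA gives them, and were used as they stand. RMA adjusts all arrays to one distribution, so a change of all RNA at once cannot be seen. Which arrays shared a strip is not given in the sources used here. A probe set was named from the platform annotation where it gives 1 gene (28898 of 45037; 551 give several, 15588 none), and 0 symbols changed through RefSeq names. The 104 array controls were set aside.

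Values were fitted in R 4.3.3 with limma 3.58.1 (lmFit and eBayes, no trend, no covariate), with Benjamini-Hochberg adjustment over all 45037 probe sets, or over all 11801 pairs for differences between probe sets. Intervals are 95% and fold changes are from the log2 differences. The steps were tested on simulated data. The background level is the highest mean of the nonspecific-binding probe sets GC3 to GC24 (22 in number); the GC25 probe set stood apart at 7.3 and was left out after its value was seen. The number of arrays limits the precision. Named genes were all 10 ligases at every probe set, the 3 genes with the widest difference among those past the test and above the background in each list, with Foxo1, Foxo3 and Myog added, the 5 genes most like Fbxo32, and Acta1 and Ckm. The ligases and the lists were chosen with earlier results of these data known. Alternatives tried were array weights, a trend, robust moderation, the methods' own one-way test, 3 other scalings, a replicate block, a filter on dim probe sets, the mean of a gene's probe sets, the thresholds of the methods and leaving out each array. Deviations of same-numbered MA and control arrays correlated at 0.0416 to 0.188, against -0.18 to 0.0698 for those of different numbers. What the number stands for is not stated, and it was not taken as a pairing in the main fit. Listed genes that no probe set names alone were not analysed here, nor were the qPCR, weight and strength measurements.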

Additional observations from a re-analysis of the deposited data

Results flagged for a closer look

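Outside the comparison, all 18 probe sets of the hybridization controls, bacterial and phage transcripts spiked into each sample, read higher with MA than in the control group, with a median difference of 0.173 (0.0352 to 0.354). The 3 probe sets of 18S ribosomal RNA were higher in the MA group by 0.151 to 0.358, with 0.358 the highest. The gap between 3′ and 5′ probe sets of actin averaged 0.857 on the MA arrays and 0.933 on the control arrays, and that of Gapdh -0.0928 on the MA arrays and -0.0240 on the control arrays. Their part in the differences of the ligases was not tested.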

How the results depend on the processing

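The falls of Fbxo32 (1448747_PM_at, 1417522_PM_at), Trim63, Fbxo31 and Fbxo30 kept their direction and stayed past an adjusted p of 0.05 under every alternative that was run on them, while Trim63 and 3 of the 4 Fbxo30 probe sets lay under the fold of 1.2 of the methods. Centring on hybridization controls gave 0 member probe sets higher and 19 lower, 0 member genes higher and 9 lower, and 2175 of all probe sets higher and 36187 lower (9707 and 9624 as deposited). It turned the sign of Fbxo32 1435265_PM_at (-0.11), Mul1 1434118_PM_at (-0.12), Nedd4 1450431_PM_a_at (-0.10) and the Traf6 probe sets 1446940_PM_at (-0.17), 1421376_PM_at (-0.072) and 1421377_PM_at (-0.035). A filter at the GC25 probe set, chosen after seeing the data, left 10 member probe sets with 2 higher, 1 member gene higher, and 2551 of all probe sets higher and 2801 lower. The thresholds of the methods gave 0 member probe sets higher and 5 lower, 0 member genes higher and 2 lower, and 2053 of all probe sets higher and 2580 lower. The filter on dim probe sets, which tests fewer pairs, left 3525 of 5396 pairs that differ over all genes. Cblb 1437304_PM_at turned to 0.004213 after quantile normalization again, and the mean of the Nedd4 probe sets to -0.012, while the mean ended the Mul1 call (adjusted p = 0.223) and brought Fbxo21 (adjusted p = 0.0225) and Traf6 (adjusted p = 0.00916) past the threshold. With each array left out in turn, 3 to 4 member probe sets and 1 to 2 member genes were higher (1 gene without MA 1, MA 3, control 2 or control 3). Traf6 1446940_PM_at ranged from -0.026 without MA 1 to 0.052 without MA 3 (and was below 0 without control 2), the pair of Fbxo30 1436550_PM_at from -0.039 without MA 1 to 0.021 without control 2 (and was above 0 without MA 2), and the pair of Fbxo21 1451543_PM_at from -0.057 without MA 2 to 0.023 without MA 3. The cause of these shifts was not tested beyond what the settings themselves change. The replicate number as a block ended the call of Fbxo32 1435265_PM_at (adjusted p = 0.0605), brought in Cblb 1455082_PM_at (adjusted p = 0.0355) and the Traf6 1421377_PM_at pair (0.13, adjusted p = 0.0496), and changed no other member call. Deviations of same-numbered MA and control arrays correlated at 0.188, 0.0416 and 0.142, against -0.18 to 0.0698 for those of different numbers. Whether same-numbered arrays also shared a strip or another step is not known. Probe sets at or under the background, 38.5% of all, carry little signal, among them Mul1 1434118_PM_at and Traf6 1421377_PM_at.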
